A study of Mus musculus with 112 samples.

Results

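Small nucleolar RNAs (snoRNAs) of the mouse cerebral cortex were compared between a calorie restricted (CR) and a control diet in 7 strains, males throughout. The set holds 51 of the 19938 genes that the platform annotation pairs with probe sets of a single symbol, namely those whose symbol begins with Snord (31 box C/D genes) or Snora (20 box H/ACA genes). The 112 arrays were 1 per mouse, with 8 CR and 8 control mice in each strain: the inbred Balbc/J, DBA/2J, CBA/J, 129S1/SvImJ, C3H/HeJ and C57BL6/J, and B6C3F1/J, the hybrid of C57BL6/J and C3H/HeJ. Each mouse had its own cage and was given 84 kcal per week until the diets began at 8 weeks of age, and the cortex was taken at 22 weeks after an overnight fast. Food was not the same for every strain: Balbc/J received more on both diets, and the CR allowance of 129S1/SvImJ and C57BL6/J was lowered further partway. Strain and food allowance therefore cannot be told apart in comparisons that involve Balbc/J, or, among CR mice, 129S1/SvImJ or C57BL6/J. The study's methods give no other change of allowance, so none is stated among the control mice of the hybrid and its parents.

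snoRNAs are short noncoding RNAs of the nucleolus that are mostly cut out of the introns of longer host transcripts, many of which encode ribosomal proteins or translation factors. Box C/D members guide 2′-O-methylation and box H/ACA members guide pseudouridylation of ribosomal and spliceosomal RNA, each in a particle with its own core proteins. A few act in the cleavage of the ribosomal RNA precursor. Among them are the U8 type Snord118, the U14 type Snord14e, the U22 type Snord22 and the U17 type Snora73a and Snora73b. Brain is also known for a large imprinted cluster, Snord115 and Snord116, but no gene of that cluster entered the set. Of the 41 snoRNA probe sets left out for carrying several symbols, 24 carried Snord116 symbols.

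The values were log2 signals after robust multi-array averaging (RMA), which are summaries of probe brightness and allow a gene to be compared between mice but not with another gene. Array medians lay between 7.14 and 7.26. Mean log2 signals of the snoRNA genes ran between 3.89 for Snord58b and 11.99 for Snord57, with a median of 7.63 against 7.53 for all genes. Their spread was wider: the median within-group SD was 0.19 log2 units, against 0.14 for all genes. Cerebellar marker genes stood out on 4 arrays, with means of 10.88 on B6C3F1/J control replicate 8, 10.67 on C57BL6/J control replicate 6, 8.59 on DBA/2J control replicate 8 and 8.30 on CBA/J CR replicate 6, against at most 7.66 on the others. On those arrays the median snoRNA gene lay 0.14, 0.042, 0.019 and 0.092 above its group mean, and results are given without them where they change.

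A single snoRNA gene was lower in CR mice across strains. Snora7a, a box H/ACA guide from an intron of the ribosomal protein gene Rpl32, was lower in CR mice, with a difference of -0.12 ± 0.022 log2 units (SE; 95% interval of the difference -0.17 to -0.079; adjusted p = 0.000233), about -8.16% in signal. It was the only 1 of 51 members called, 1.96%, against 2.34% of all genes called in either direction and 1.17% called lower. The remaining 50 members were not called.

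Snora7a was lower in the mean of the CR mice of all 7 strains. In Balbc/J its log2 signal had a lowest, median and highest value of 9.84, 10.05 and 10.20 in CR mice, against 10.12, 10.24 and 10.35 in control mice. In C57BL6/J the values were 9.70, 9.89 and 10.06 in CR mice and 9.86, 10.07 and 10.17 in control mice. In DBA/2J they were 9.78, 10.10 and 10.25 in CR mice and 10.09, 10.22 and 10.46 in control mice. In each of these strains the CR mice were shifted downward while their range still overlapped that of the control mice. C3H/HeJ mice had 10.21, 10.41 and 10.84 on CR and 10.44, 10.59 and 10.79 on the control diet. CBA/J mice had 10.42, 10.50 and 10.64 on CR and 10.48, 10.61 and 10.80 on the control diet. B6C3F1/J mice had 10.14, 10.30 and 10.41 on CR and 10.21, 10.40 and 10.48 on the control diet. The shift was smallest in 129S1/SvImJ, whose mice had 9.89, 10.07 and 10.18 on CR and 9.92, 10.09 and 10.22 on the control diet, a difference of -0.026 between means. The ranges of the diets overlapped in every strain, and within no strain did Snora7a pass the test. The call was kept in 22 of 22 alternatives. These included leaving out each strain in turn and leaving out the 4 cerebellum-rich arrays together. Rpl32 itself had no probe set of a single symbol and was not analysed here.

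**Figure D1:**
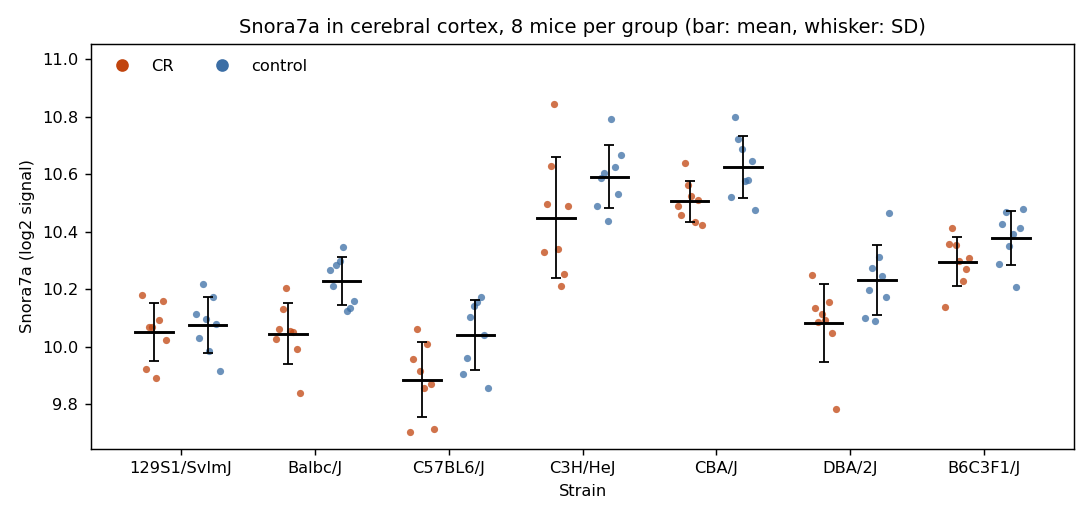
Log2 signal of Snora7a by strain, with CR mice (orange) left of control mice (blue), a point per mouse, bars for means and whiskers for SD (n = 8 per group). The mean of the CR mice was below that of the control mice in all 7 strains, by differences of -0.026 to -0.18 log2 units, while the ranges overlapped.

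The next members by p were also lower in CR mice and did not pass. Snord82, a box C/D guide within the nucleolin gene Ncl, differed by -0.15 ± 0.047 log2 units (adjusted p = 0.0725), with 5 of 7 strain means lower. Its values in Balbc/J were 9.17, 9.75 and 10.06 in CR mice, against 9.95, 10.14 and 10.48 in control mice, whereas in 129S1/SvImJ they were 9.66, 10.23 and 10.40 in CR mice, against 9.80, 10.17 and 10.41 in control mice. Balbc/J thus had the largest of the 7 strain differences of Snord82. Snord53, a box C/D guide within Wdr43, differed by -0.13 ± 0.048 (adjusted p = 0.125), and its largest strain difference, -0.40 in Balbc/J, included a CR mouse at 10.52 where the other CR mice of that strain lay between 11.48 and 11.94. Snora73b and Snora73a, U17 type snoRNAs of Snhg3 that act in ribosomal RNA processing, differed by -0.11 ± 0.041 and -0.092 ± 0.036 (adjusted p = 0.149 and 0.181), each with 6 of 7 strain means lower. Snord42b, within Rpl23a, differed by -0.067 ± 0.027 (adjusted p = 0.203). At an unadjusted p under 0.05 stood 9 of 51 members, 17.6%, against 14.3% of all genes.

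As a group the snoRNA genes did not lean one way under CR. Of the 51, 26 had a lower mean in CR mice, and the median difference was -0.0039 log2 units, against 0.00054 for all genes. Box C/D members had 17 of 31 lower with a median of -0.0082, and box H/ACA members 9 of 20 lower with a median of 0.0026. The size of the difference was larger than usual, with a median of 0.042 against 0.022 for all genes, and so was its standard error, with a median of 0.036 against 0.026. The 95% intervals, taken gene by gene, bounded only the difference averaged over strains. For 46 members the interval lay within 0.2 log2 units of 0, and for all 51 within 0.3. The widest bounds were -0.30 for Snord14e and 0.25 for Snord58b. These intervals do not bound differences within single strains, where the median standard error of the members was 0.094. Strain differences of opposite sign can also cancel in the average.

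Within single strains no snoRNA gene was called, against 0.191% of all genes called in at least 1 strain. In C57BL6/J, 40 of 51 members had lower means in CR mice, with a median of -0.089 log2 units, against 0.0048 for all genes. In CBA/J 15 of 51 were lower, with a median of 0.064, against -0.0026 for all genes. The members vary together from mouse to mouse, and the difference of the set as a whole between strains was not tested. The smallest p in C57BL6/J belonged to Snora73b, whose values were 8.67, 8.79 and 9.21 in CR mice, against 8.89, 9.11 and 10.11 in control mice (difference -0.39 ± 0.11, adjusted p = 0.125). A single control mouse, at 10.11, stood above the rest, and the ranges overlapped. In CBA/J the smallest p belonged to Snord118, the U8 snoRNA needed for the large ribosomal subunit, at 5.88, 6.01 and 6.45 in CR mice, against 5.53, 5.70 and 5.92 in control mice (difference 0.39 ± 0.11, adjusted p = 0.154). It was called there with array weights (adjusted p = 0.0374), with the replicate number as a block (0.0138) and without the C57BL6/J arrays (0.0492). Here every CR mouse was above the control median, with overlap at the edges.

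At an unadjusted p under 0.05 stood 14 of 51 members in CBA/J (27.5%, against 7.87% of all genes), 9 in C57BL6/J (17.6%, against 10.6%), 7 in Balbc/J (13.7%, against 6.65%) and 6 in C3H/HeJ (11.8%, against 2.64%). There were 4 in 129S1/SvImJ (7.84%, against 6.24%), 3 in DBA/2J (5.88%, against 5.66%) and 1 in B6C3F1/J (1.96%, against 7.63%). Among the 14 in CBA/J were Snord14e, the U14 snoRNA of the Hspa8 introns, at a difference of -0.62 ± 0.19 (adjusted p = 0.176), and Snora52, within Rplp2, at 0.50 ± 0.17 (adjusted p = 0.273). Snora52 had values of 10.07, 11.04 and 11.49 in CR mice of CBA/J, against 10.01, 10.45 and 10.98 in control mice. The difference between strains in the CR effect was tested itself, and 0 of 51 members passed, against 0.0401% of all genes. At an unadjusted p under 0.05 stood 8 members, 15.7%, against 6.11% of all genes, and Snord52 had the smallest (adjusted p = 0.569). Snord52 differed by 0.45 ± 0.15 in CBA/J and by -0.42 ± 0.15 in C3H/HeJ. No snoRNA gene reached p under 0.01 in 3 or more strains, a count that 31 of all genes reached.

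Leaving arrays out changed these counts slightly. Without the 4 cerebellum-rich arrays Snora73b was called in C57BL6/J (difference -0.44, adjusted p = 0.0464), and without the 14 arrays numbered replicate 1 Snora52 was called in CBA/J (0.70, adjusted p = 0.00612).

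**Figure D2:**
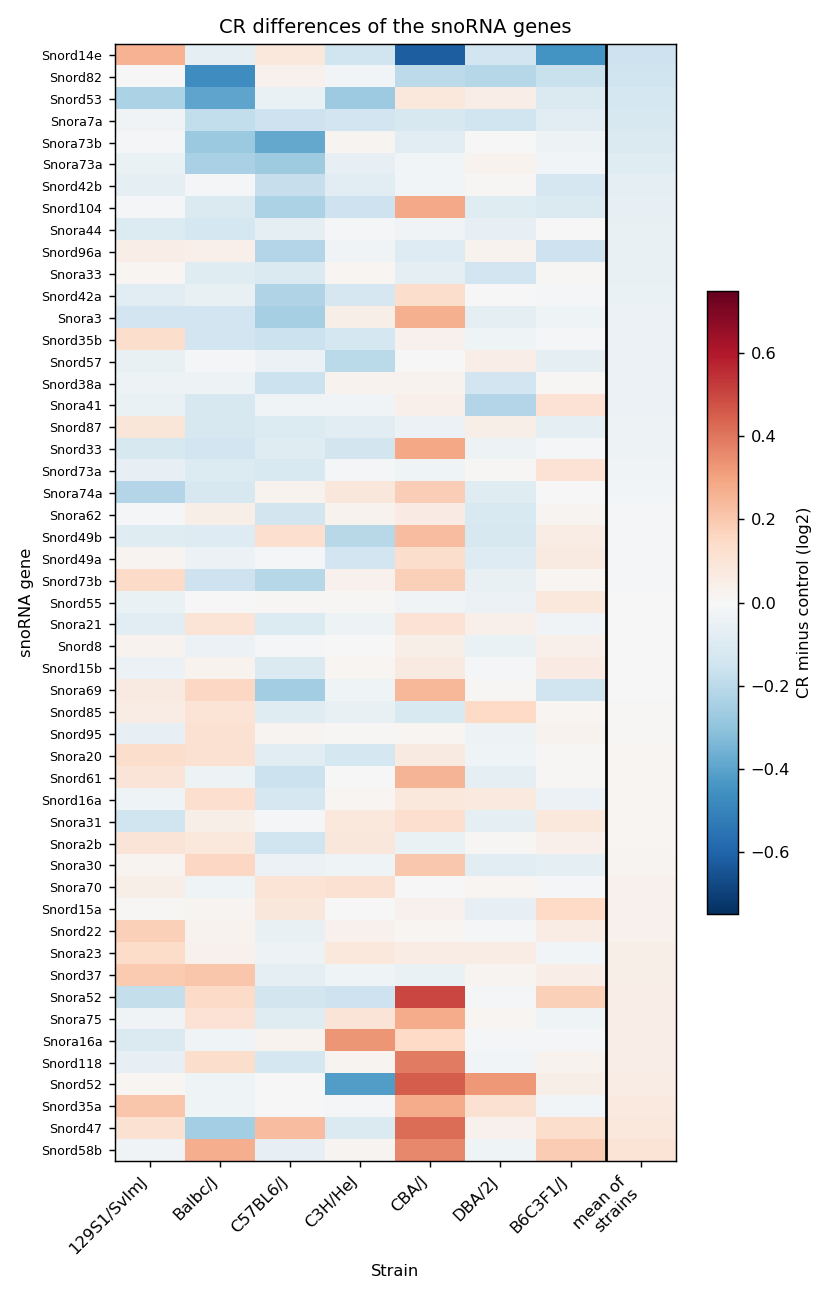
Difference in log2 signal, CR minus control, of the 51 snoRNA genes (rows) in each of the 7 strains and averaged over them (last column), blue for lower and red for higher in CR mice. C57BL6/J is mostly blue (40 of 51 lower) and CBA/J mostly red (15 of 51 lower), and the averaged column is pale, at -0.16 to 0.10.

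Far more snoRNA genes were called between strains than between diets. The sizes are not set side by side, since a range of strain means and an averaged diet difference are unlike measures. Among CR mice 44 of 51 snoRNA genes differed between strains, 86.3% against 56.8% of all genes, and among control mice 47 of 51 did, 92.2% against 65.4%. The 42 genes called in both diets were 95.5% of those called in CR mice and 89.4% of those called in control mice. The diets share no array, though they share the strains. The range between the highest and the lowest strain mean had a median of 0.45 log2 units in CR mice, against 0.24 for all genes, and of 0.51 in control mice, against 0.27 for all genes. More than 1 log2 unit separated the strain means of 7 members in CR mice, 13.7% against 0.692% of all genes, and of 9 in control mice, 17.6% against 0.803%. Box C/D genes had a median range of 0.74 in control mice with 8 of 31 over 1 log2 unit, and box H/ACA genes 0.43 with 1 of 20, Snora74a.

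**Figure D3:**
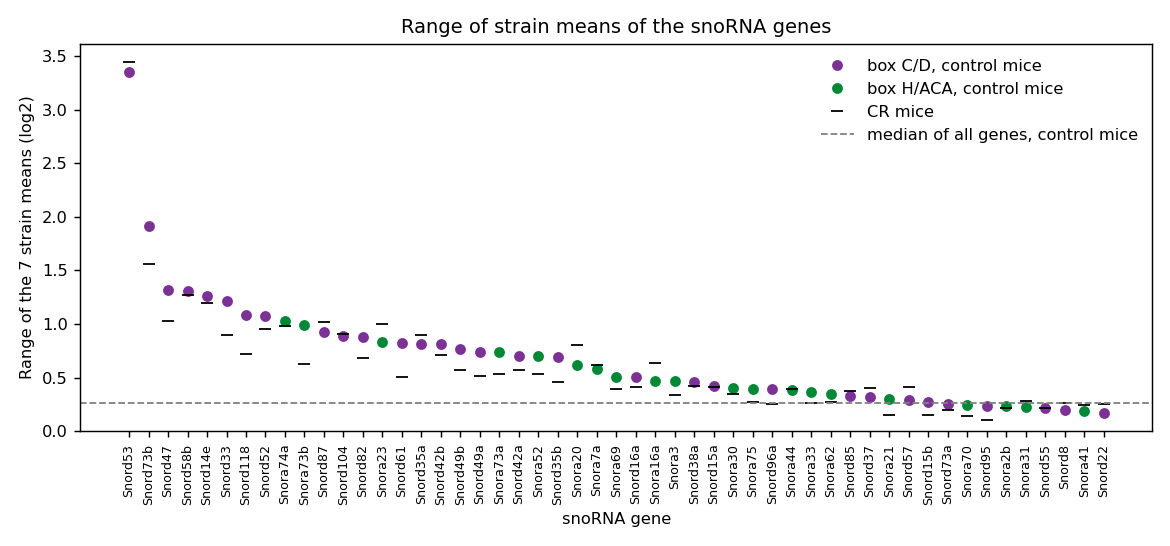
Range of the 7 strain means in log2 units for each snoRNA gene, as points for control mice (purple, box C/D; green, box H/ACA) and dashes for CR mice, with the median over all genes in control mice (0.27) as a dashed line. Snord53 stands apart at 3.45 in CR mice and 3.35 in control mice, and the ranges of the diets follow each other.

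Snord53 had the widest range, the third widest of all 19938 genes in either diet. It is a box C/D guide from an intron of Wdr43, a gene of ribosome assembly. In CR mice its lowest, median and highest values were 11.59, 11.83 and 12.06 in DBA/2J, its highest strain, against 8.36, 8.70 and 9.08 in C57BL6/J and 8.11, 8.43 and 8.58 in 129S1/SvImJ. In control mice they were 11.71, 11.93 and 12.21 in Balbc/J, its highest strain, against 8.29, 8.72 and 9.08 in C57BL6/J and 8.43, 8.62 and 8.90 in 129S1/SvImJ. The 129S1/SvImJ and C57BL6/J mice overlapped each other and lay below every mouse of the other 5 strains. Those ranged from 9.98 in B6C3F1/J to 12.06 in DBA/2J among CR mice, and from 9.88 in B6C3F1/J to 12.27 in DBA/2J among control mice. The ratio of the highest to the lowest strain mean was 10.9-fold in CR mice and 10.2-fold in control mice on the scale of signal.

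The host gene Wdr43 did not share the pattern. Its group means lay between 8.27 and 8.57 over all 14 groups, with a range of 0.26 between control strain means. Across the 112 arrays the deviations of Snord53 and Wdr43 from their group means correlated at r = -0.20. The deposited values do not tell a difference in snoRNA amount from a difference in how well the probes bind: strain variants under a short target were not tested, and the array's probe sequences were not used here.

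**Figure D4:**
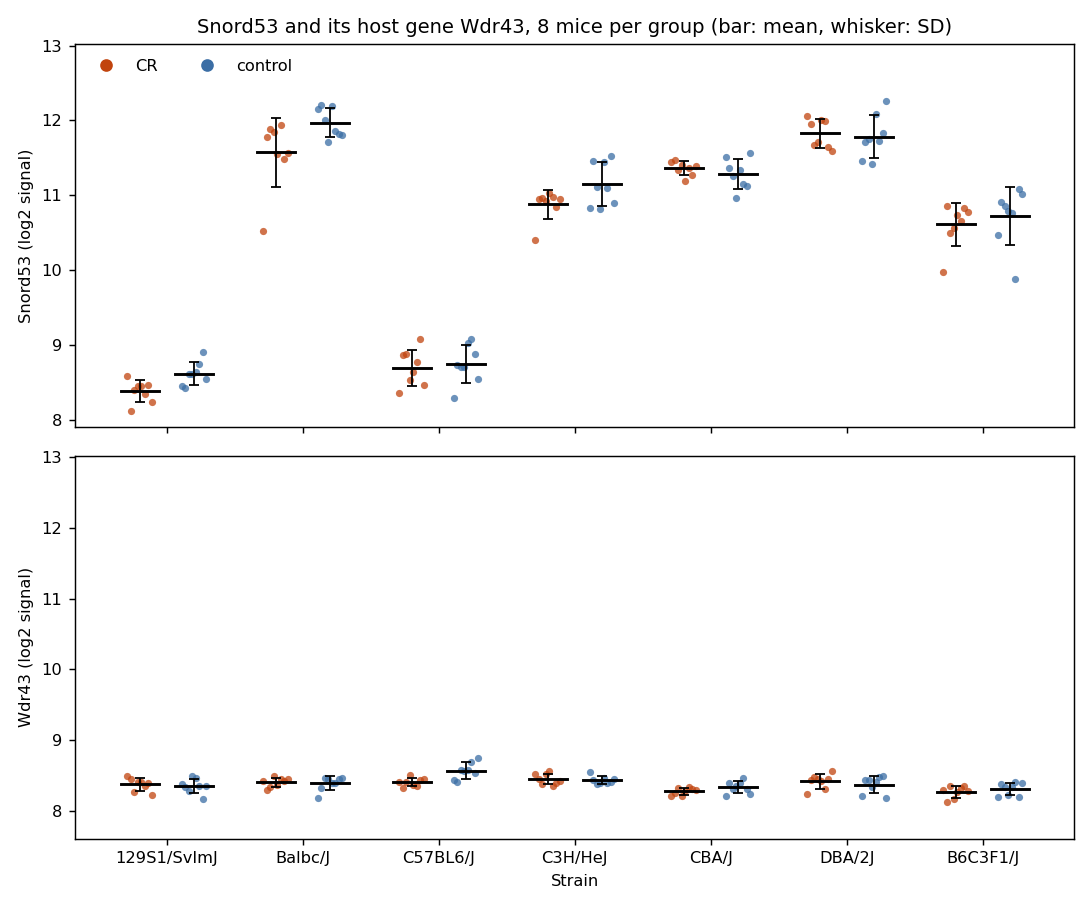
Log2 signal of Snord53 (top) and of its host gene Wdr43 (bottom) by strain, CR mice (orange) left of control mice (blue), a point per mouse, bars for means and whiskers for SD (n = 8 per group). Mean Snord53 lies between 8.38 and 8.74 in 129S1/SvImJ and C57BL6/J and between 10.61 and 11.97 in the others, while Wdr43 stays between 8.27 and 8.57.

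Snord73b ranked next among the snoRNA genes. It is a box C/D gene within the ribosomal protein gene Rps3a1 and was highest in C57BL6/J, at 7.35, 7.75 and 8.21 in CR mice and 7.52, 8.05 and 8.23 in control mice. It was lowest in 129S1/SvImJ, at 5.76, 6.31 and 6.69 in CR mice and 5.74, 6.04 and 6.66 in control mice. Those strains did not overlap in either diet. Snord73a, a relative within the same host, had strain means within 0.25 log2 units in control mice, and the deviations of both genes from their group means correlated at r = -0.003 over 112 arrays. Rps3a1 itself had its highest control mean in C3H/HeJ (8.63). Its lowest control means were nearly equal, at 7.947 in C57BL6/J, where Snord73b was highest, and 7.948 in Balbc/J. For these paralogs cross-hybridisation between probe sets was not tested.

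Snord47, a box C/D guide within Gas5, and Snord33, a guide within Rpl13a, were highest in DBA/2J and lowest in CBA/J among control mice. Snord47 had 8.71, 9.14 and 9.67 in CR mice of DBA/2J and 7.94, 8.23 and 8.36 in those of CBA/J, without overlap, and 8.85, 9.08 and 9.50 in control mice of DBA/2J and 7.41, 7.77 and 8.24 in those of CBA/J, again without overlap. Snord33 had 7.56, 8.15 and 8.36 in CR mice of DBA/2J and 7.01, 7.17 and 7.40 in those of CBA/J, and 7.60, 8.11 and 8.69 in control mice of DBA/2J and 6.65, 6.84 and 7.22 in those of CBA/J, without overlap in either diet. Snord118 shared these extremes in control mice, with 6.54, 6.77 and 7.08 in DBA/2J and 5.53, 5.70 and 5.92 in CBA/J. In CR mice its lowest mean was that of Balbc/J, and the range was 0.72, against 1.09 in control mice. The difference between strains in its CR effect was not called (adjusted p = 0.807).

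The processing snoRNA Snord14e was highest in Balbc/J, at 8.71, 9.29 and 9.71 in CR mice and 8.71, 9.46 and 9.66 in control mice. Its lowest mean was that of C3H/HeJ in CR mice, at 7.64, 8.02 and 8.49, and that of 129S1/SvImJ in control mice, at 7.56, 8.03 and 8.65. Snord52 had its highest mean in C57BL6/J in both diets and its lowest in B6C3F1/J among CR mice and CBA/J among control mice. Snord58b was highest in C57BL6/J and lowest in 129S1/SvImJ in both diets, but its mean signal of 3.89 was the lowest of the set, so that its range of 1.31 in control mice rests on dim probes. Adjusted p values for strain differences in control mice ran from 3.8e-54 for Snord53 to 1.6e-07 for Snord58b among these 8 members.

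The narrowest range in control mice was that of Snord22, the U22 snoRNA of the Snhg1 introns, which acts in ribosomal RNA processing. Its strain means lay within 0.25 log2 units in CR mice, where it was called (adjusted p = 0.0214), and within 0.17 in control mice, where it was not (adjusted p = 0.31). Snord57, within the core protein gene Nop56 and the brightest of the set, had strain means between 11.73 in C3H/HeJ and 12.14 in C57BL6/J among CR mice, and between 11.89 in B6C3F1/J and 12.18 in C57BL6/J among control mice. Snora52, the brightest box H/ACA member, ranged by 0.53 in CR mice and 0.70 in control mice, wider than the median member.

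The strains that led and trailed were unevenly spread. Among CR mice Balbc/J had the highest mean for 14 members, DBA/2J for 11 and C57BL6/J for 10, and the lowest means were spread over 129S1/SvImJ and C3H/HeJ (9 each), B6C3F1/J, C57BL6/J and CBA/J (8 each), DBA/2J (6) and Balbc/J (3). Among control mice C57BL6/J had the highest mean for 19, DBA/2J for 12 and Balbc/J for 9, and CBA/J had the lowest for 19 and 129S1/SvImJ for 13. In that same group, the C57BL6/J control mice, the median snoRNA gene varied most from mouse to mouse. The array median of snoRNA deviations from the overall means lay between -0.19 and 0.25 there (SD 0.14), against SDs of 0.043 to 0.097 in the other 13 groups. C57BL6/J control replicate 1 was the lowest, with its median snoRNA gene at -0.31 relative to the group mean, and C57BL6/J CR replicate 1 lay at -0.24. Over the 14 groups the arrays numbered replicate 1 were below their group mean in 10. Without these 14 arrays the strain calls were 44 members in CR mice and 49 in control mice.

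Pairs of members varied together from mouse to mouse more often than pairs of other genes. Over 112 arrays the correlation of deviations from group means had a median of 0.15 over the 1275 pairs of snoRNA genes, with 77.4% of pairs positive, against a median of -0.0028 and 49.6% over the pairs of 1994 genes taken evenly from the whole table. The points share an array, an RNA extract and a mouse. The array-wide snoRNA deviation was set against a quality measure, the width of each array's relative log expression, and no relation was detected over 112 arrays (Pearson's r = 0.072, permutation p = 0.44; Spearman's rho = -0.0059, permutation p = 0.951; r = -0.024 without the 2 arrays farthest in that width). RNA extraction and labelling batches are not labelled, and their part was not tested.

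Pairs from the same host differed widely in how far they moved together. Over the 10 such pairs r had a median of 0.27 and reached 0.85. Snora73a and Snora73b of Snhg3 correlated at 0.85, Snord49a and Snord49b of 2410006H16Rik at 0.77, Snord33 and Snord35a of Rpl13a at 0.66 and Snord42a and Snord42b of Rpl23a at 0.54. Snora73a and Snora73b are closely related paralogs, so shared probes or cross-hybridisation cannot be told apart from joint variation. Snora75 and Snord82 of Ncl correlated at 0.035. Of the members within a measured host, 28 with 24 hosts, the correlation with the host had a median of 0.14, from -0.35 for Snord57 and Nop56 to 0.51 for Snord61 and Rbmx. The control strain range of the snoRNA exceeded that of its host in 19 of 28, with medians of 0.41 for the snoRNAs and 0.33 for the hosts. Among the pairs where the host ranged more widely were Snord47 and Gas5, a noncoding host rich in snoRNAs, at 1.32 and 1.48. The gap was larger for Snora62 and Rpsa (0.35 and 0.969), Snord16a and Rpl4 (0.507 and 1.08) and Snord73a and Rps3a1 (0.255 and 0.681).

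Many snoRNA hosts are known to start in a terminal oligopyrimidine tract, a run of C and T letters at the start of transcription. The windows of 45 bases around the annotated start (30 before and 15 after, on the strand of the gene, from RefSeq on GRCm38.p6) are shown for the hosts of the most joint pairs, Rpl13a, 2410006H16Rik and Snhg3, and of the widest-ranging members, Wdr43 and Rps3a1. Capitals mark a run of at least 6 C or T letters that touches the 10 bases on either side of the start.
Rpl13a, chr7:45128731-45128775, minus strand: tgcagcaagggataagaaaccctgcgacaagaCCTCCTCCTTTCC
2410006H16Rik, chr11:62602847-62602891, plus strand: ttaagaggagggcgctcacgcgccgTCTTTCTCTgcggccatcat
Snhg3, chr4:132353672-132353716, minus strand: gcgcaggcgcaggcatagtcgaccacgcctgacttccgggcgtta
Wdr43, chr17:71616185-71616229, plus strand: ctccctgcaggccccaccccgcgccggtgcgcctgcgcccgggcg
Rps3a1, chr3:86142654-86142698, minus strand: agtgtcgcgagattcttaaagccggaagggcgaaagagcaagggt

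Rpl13a held a run of 14 letters, the last of them past the window, and 2410006H16Rik a run of 9, while the other 3 windows held no run of at least 6 near the start. Of the 31 hosts with an entry, 17 held such a run, 54.8%, against 29.2% of the 32841 promoters in the RefSeq table. A host counted if any of its entries held a run, whereas the promoters were counted singly, so the shares are of unlike units. A run of letters is a description of the window and not a measured start site.

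In the hybrid the snoRNA genes were compared with the mean of its parents within each diet. Among CR mice 5 members were higher in B6C3F1/J (7.46% of all genes) and 10 were lower (10.5% of all genes), that is 9.80% and 19.6% of the 51. Among control mice 5 were higher (6.39% of all genes) and 12 were lower (9.77% of all genes), that is 9.80% and 23.5% of the 51. The diets share no array, and 13 members were called in both with the same sign, 86.7% of those called in CR mice and 76.5% of those called in control mice. All 17 called in control mice had the same sign in CR mice. The members vary together from mouse to mouse, so these counts are not of independent genes.

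On the log2 scale Snord53 was the member with the largest excess in the hybrid. Its values were 9.98, 10.69 and 10.86 in CR mice of B6C3F1/J, against 8.36, 8.70 and 9.08 in C57BL6/J and 10.40, 10.94 and 11.03 in C3H/HeJ. Among control mice they were 9.88, 10.82 and 11.08 in B6C3F1/J, against 8.29, 8.72 and 9.08 in C57BL6/J and 10.82, 11.11 and 11.52 in C3H/HeJ. The hybrid mice all lay above the C57BL6/J mice and overlapped the C3H/HeJ mice. The excess over the parental mean was 0.82 ± 0.11 log2 units in CR mice (adjusted p = 6.1e-09) and 0.77 ± 0.11 in control mice (adjusted p = 1.0e-07). The scale matters here, since the mean of log2 values is below the log2 of the mean signal: against the mean of the parents' signals the excess was 0.45 in CR mice and 0.32 in control mice, and a fit on signal did not call it in control mice (adjusted p = 0.153). On that measure Snord14e (0.62) and Snora74a (0.44) exceeded Snord53 in control mice, while in CR mice Snora74a (0.38) and Snord14e (0.19) were below it.

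Snora74a, a box H/ACA guide of Snhg4, was higher in the hybrid than in either parent. It had 7.96, 8.17 and 8.35 in CR mice of B6C3F1/J, against 7.39, 7.76 and 7.88 in C57BL6/J and 7.76, 7.83 and 7.95 in C3H/HeJ. Among control mice it had 8.01, 8.13 and 8.36 in B6C3F1/J, against 7.28, 7.73 and 7.97 in C57BL6/J and 7.51, 7.74 and 8.17 in C3H/HeJ. In CR mice the hybrid did not overlap either parent, and in control mice it overlapped only the top of C3H/HeJ. The differences from C57BL6/J and C3H/HeJ were 0.44 ± 0.079 and 0.31 ± 0.079 in CR mice (adjusted p = 5.0e-06 and 0.0032) and 0.47 ± 0.079 and 0.40 ± 0.079 in control mice (adjusted p = 1.5e-06 and 0.00016). The parents themselves were not called as different.

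Snord14e was called higher than the parental mean only in control mice (0.63 ± 0.16, adjusted p = 0.00299), with 0.22 ± 0.16 in CR mice (adjusted p = 0.38), and the difference between the diets was not tested in this contrast. Its hybrid values were 8.02, 8.50 and 9.47 in CR mice and 8.29, 8.99 and 9.91 in control mice, a spread wider than in either parent. Snora23 and Snora44 were higher in both diets, by 0.20 and 0.21 log2 units in CR mice and by 0.24 and 0.16 in control mice.

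Among the members lower in the hybrid, Snord87 of the Snhg6 locus was below both parents. It had 5.69, 6.18 and 6.59 in CR mice of B6C3F1/J, against 6.57, 7.04 and 7.39 in C57BL6/J and 6.30, 6.52 and 6.95 in C3H/HeJ. In control mice it had 5.91, 6.18 and 6.59 in B6C3F1/J, against 6.60, 7.12 and 7.36 in C57BL6/J and 6.11, 6.57 and 7.13 in C3H/HeJ. The hybrid was separate from C57BL6/J in control mice and overlapped the lower part of C3H/HeJ in both diets. Its difference from the parental mean was -0.62 ± 0.097 in CR mice (adjusted p = 4.3e-07) and -0.65 ± 0.097 in control mice (adjusted p = 3.0e-07).

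Snord52, a box C/D guide of 1110038B12Rik, differed from the parental mean by -0.52 ± 0.13 in CR mice (adjusted p = 0.002) and by -0.77 ± 0.13 in control mice (adjusted p = 6.1e-06). Its values were 5.21, 5.58 and 5.91 in CR mice of B6C3F1/J, against 5.92, 6.61 and 6.97 in C57BL6/J and 5.27, 5.74 and 5.93 in C3H/HeJ. Among control mice they were 5.33, 5.53 and 5.86 in B6C3F1/J, against 5.67, 6.71 and 7.08 in C57BL6/J and 5.24, 6.04 and 6.87 in C3H/HeJ. It was thus below C57BL6/J in both diets and below both parents in control mice by the test (difference from C3H/HeJ -0.54 ± 0.15, adjusted p = 0.0125). In CR mice its difference from C3H/HeJ was -0.079 ± 0.15 (adjusted p = 0.83).

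Snord42b differed by -0.35 ± 0.062 in CR mice (adjusted p = 9.4e-06) and by -0.34 ± 0.062 in control mice (adjusted p = 1.9e-05), and was below both parents by the test in CR mice. Snord35a of Rpl13a was below both parents in either diet, with mean levels in CR mice of 8.64 in B6C3F1/J, 9.02 in C57BL6/J and 8.97 in C3H/HeJ, and in control mice of 8.66, 9.02 and 8.99 in the same strains. Beyond both parents by the test were therefore 4 members in CR mice (Snora74a above; Snord35a, Snord42b and Snord87 below) and 4 in control mice (Snora74a above; Snord35a, Snord52 and Snord87 below), against 5.84% and 3.92% of all genes. The remaining members lower in both diets were Snord16a, Snord33, Snord35b, Snord47 and Snord73b, with differences of -0.18 to -0.46 in CR mice and -0.19 to -0.53 in control mice.

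**Figure D5:**
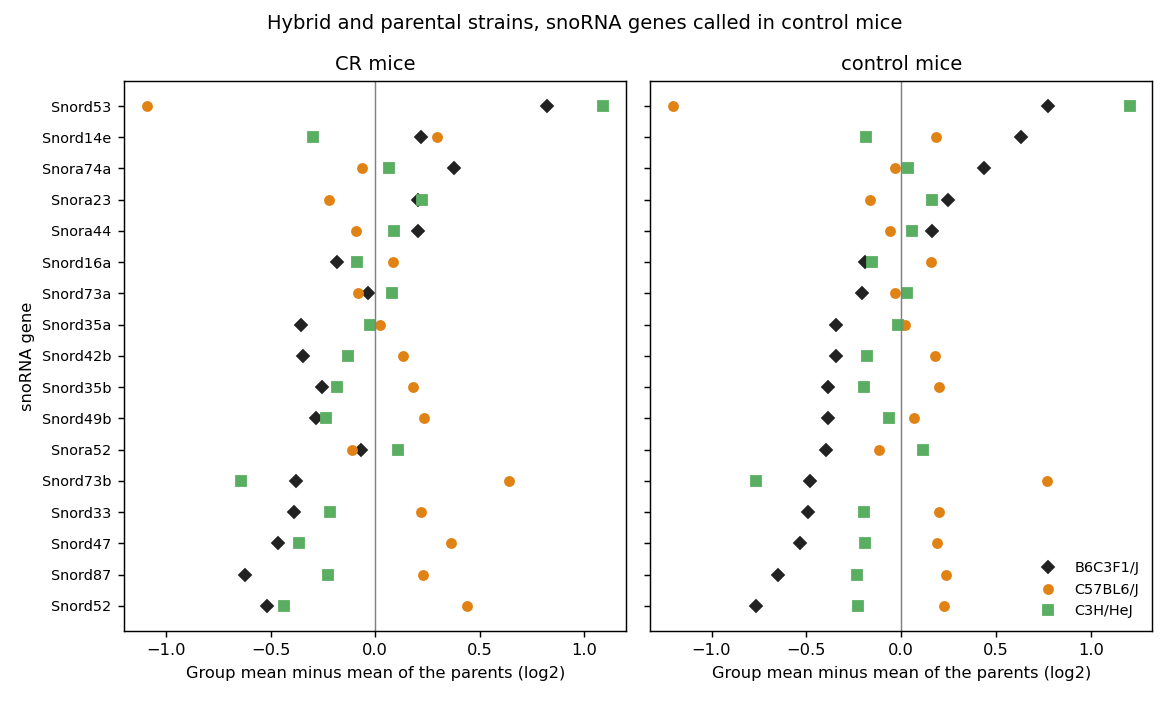
Group means of B6C3F1/J (black diamonds), C57BL6/J (orange circles) and C3H/HeJ (green squares) relative to the mean of the parents, in log2 units, for the 17 snoRNA genes called in control mice, with CR mice in the left panel and control mice in the right. The hybrid lies on the same side of 0 in both panels for all 17, and for most it lies nearer to C3H/HeJ than to C57BL6/J or beyond it.

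More of the called members were higher in C57BL6/J than in C3H/HeJ. Among CR mice 17 snoRNA genes were higher in C57BL6/J than in C3H/HeJ (33.3%, against 7.86% of all genes) and 5 were lower (9.80%, against 9.31%). Among control mice 20 were higher (39.2%, against 10.6%) and 3 were lower (5.88%, against 12.1%). The 17 called in both diets agreed in sign in every case. The members vary together from mouse to mouse, so these counts are not of independent genes. The array median of snoRNA deviations from the overall means had a group median of 0.178 in C57BL6/J control mice and -0.0448 in C3H/HeJ control mice. In CR mice it was 0.0441 and -0.0693 in the same order. A shift of the set as a whole between the parents was not tested. Of the differences in favour of C57BL6/J, that of Snord73b was the largest in both diets, at 1.29 ± 0.14 in CR mice and 1.53 ± 0.14 in control mice. Next were Snord52 (0.88) and Snord104 (0.79) in CR mice, and Snora73b (0.97) and Snord104 (0.87) in control mice. In favour of C3H/HeJ were Snord53 (-2.18 in CR mice and -2.40 in control mice), Snora7a (-0.56 and -0.55 in the same order) and Snora23 (-0.45 and -0.33). Array probes are commonly designed on the C57BL6/J genome, and the part of variants carried by C3H/HeJ was not tested.

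For members that differed between the parents, the hybrid lay between them in 13 of 22 among CR mice (59.1%, against 59.3% of all genes that differed) and in 13 of 23 among control mice (56.5%, against 62.5%). Its mean was nearer to C3H/HeJ in 17 of 22 among CR mice (77.3%, against 70.3%) and in 21 of 23 among control mice (91.3%, against 75.1%). These counts too are not of independent genes, since the members vary together and rest on the same mice.

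The proteins that build and carry snoRNAs were measured alongside them. Of 24 symbols listed for core and assembly proteins, 23 were measured. The other, Nhp2l1, is an older symbol of Snu13, which was measured, so no listed protein was missing. Under CR 1 rose and none fell, where 2.34% of all genes were called: Shq1, an assembly chaperone of box H/ACA particles, was higher by 0.099 ± 0.020 log2 units (adjusted p = 0.00107). The median difference over the 23 was 0.0095 log2 units. Snu13, the protein that binds the kink of box C/D RNAs, was at 0.064 ± 0.020 (adjusted p = 0.0641), Fbl, the methyltransferase, at -0.050 ± 0.020 (adjusted p = 0.186) and Dkc1, the pseudouridine synthase, at 0.046 ± 0.027 (adjusted p = 0.461). All 23 differed between strains in control mice, against 65.4% of all genes, with a median range of 0.36 log2 units, against 0.27 for all genes. Of 34 host symbols listed, which hold Rack1 also under its older symbol Gnb2l1, 17 were measured. Under CR 1 of the 17 was called, where 2.34% of all genes were: Gas5, higher by 0.096 ± 0.028 (adjusted p = 0.0443). Its guide Snord47 differed by 0.081 ± 0.066 (adjusted p = 0.649). In the hybrid Gas5 was 0.17 log2 units above the parental mean in control mice (adjusted p = 0.0644), where Snord47 differed from it by -0.53. Eef2, a translation factor and the host of Snord37, is not on that list but is among the 24 measured hosts that contain a member. It was lower in CR mice, at -0.039 (adjusted p = 0.0355), while Snord37 differed by 0.046 ± 0.040 and was not called. The calls of Gas5 and Eef2 were not rerun under the alternatives.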

How the data were processed

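Affymetrix mouse Gene 1.0 ST arrays carried labelled cortex RNA of 112 mice, 1 mouse per array. The authors summarised the probe sets by RMA in Affymetrix Expression Console and deposited log2 values (35556 probe sets, none missing). RMA subtracts background, sets all arrays to 1 distribution and summarises probes, so a shift shared by all genes is not preserved. The software version and the number of normalisation runs were not given in the sources used here. Arrays have no read depth, and the 8 mice per group limit precision.

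Probe sets with 1 gene symbol in the platform annotation (21789, against 1621 with several and 12146 with none) were kept, with the probe set of highest mean for each of 19938 genes. The 51 snoRNA genes had 56 probe sets: 5 genes had 2, whose values were identical in 2 cases (Snora30 and Snord118). Of the 21789 symbols 21698 were found in the RefSeq table, and none changed. Host genes are those whose annotated span in that table contains the snoRNA, strand not used. Snord87 lies within the spans of both Mcmdc2 and Snhg6, and Mcmdc2 was left out of the host comparisons. No groups were inferred, and all sample columns were mapped.

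Differences were tested with limma 3.58.1 in R 4.3.3 on 14 group means over all 112 arrays (degrees of freedom: 98 residual, 4.62 prior). Tests were two-sided, with Benjamini-Hochberg adjustment over 19938 genes and a call at an adjusted p under 0.05. Strain and interaction tests were moderated F tests. Methods were tested on simulated data with noise independent between genes and arrays, so that test does not cover members that vary together. Named genes were the 6 of smallest p for CR, the 8 called members of widest strain range, up to 3 called members each way in the hybrid and the brightest of each family. The members and gene lists were chosen with earlier results of these data known. The replicate numbers were not taken to pair mice, since the labels tie them to no shared litter or batch. Same-numbered pairs still had a higher median correlation than other pairs in every strain. What arrays of the same number share was not tested. Alternatives changed normalisation, filter, model and arrays, and the leave-outs of single arrays, the 4 cerebellum-rich arrays, the arrays numbered 1 and the fit on linear signal were chosen after seeing the data.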

Additional observations from a re-analysis of the deposited data

Results flagged for a closer look

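Of 252 sets of 8 mice (18 named snoRNA genes in 14 groups), 14 (5.56%) held a mouse set apart from the other 7 by more than Dixon's 95% limit, where chance gives about 1 in 20. Of these, 7 were low values on arrays numbered replicate 1. Snord53 was low there in CR mice of B6C3F1/J (9.98, others 10.49 to 10.86), Balbc/J (10.52, others 11.48 to 11.94) and C3H/HeJ (10.40, others 10.84 to 11.03). Snord47 was low in B6C3F1/J CR (6.78, others 7.97 to 8.59) and Snord57 in C57BL6/J CR (11.72, others 12.08 to 12.39). Snord33 (7.46, others 7.96 to 8.27) and Snora74a (7.28, others 7.66 to 7.97) were low in C57BL6/J control. Over the 14 arrays of that number the mean deviation from the group was -0.33 for Snord47 and -0.22 for Snord53. Whether these arrays share a day or a batch is not labelled and was not tested.

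Replicate 8 held 4 such values. Snora7a was low in DBA/2J CR (9.78, others 10.05 to 10.25), Snora74a low in 129S1/SvImJ control (8.33, others 8.66 to 8.96) and Snord22 low in 129S1/SvImJ CR (6.09, others 6.23 to 6.32). Snord82 was high on the cerebellum-rich array DBA/2J control replicate 8 (11.31, others 10.23 to 10.56). The remaining 3 were Snora73a, high in C57BL6/J control replicate 4 (9.69, others 8.63 to 9.12), Snord47, low in CBA/J CR replicate 7 (7.94, others 8.17 to 8.36), and Snord118, low in 129S1/SvImJ CR replicate 3 (6.05, others 6.43 to 6.74).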

How the results depend on the processing

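No named result changed sign under any alternative. The CR call of Snora7a held in 22 of 22, with adjusted p between 0.000125 and 0.00491. Restricting the test to the 9969 genes above the median gene, which keeps 26 of the 51 members, gave 2 members called for CR (Snora7a, and Snord82 at an adjusted p of 0.0403), 26 for strains in control mice, 25 for strains in CR mice and 13 between the parents in control mice. Snord82 was called in none of the other alternatives, and its adjusted p reached 0.459 among them. Array weights gave 2 members for CR (Snora7a and Snora44, adjusted p = 0.0417). The strict rule that the hybrid lie beyond both parents left 4 members in CR mice and 4 in control mice.

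Within strains, where 0 members were called, array weights called 4 (Snora73b in C57BL6/J, and Snora75, Snord118 and Snord14e in CBA/J). Each of the following called 1: leaving out strain C57BL6/J (Snord118 in CBA/J, adjusted p = 0.0492), leaving out the 2 or the 4 cerebellum-rich arrays (Snora73b in C57BL6/J, adjusted p = 0.0477 and 0.0464), linear signal (Snora73b in C57BL6/J, adjusted p = 0.0337), the arrays without replicate 1 (Snora52 in CBA/J, adjusted p = 0.00612) and the replicate block within strain (Snord118 in CBA/J, 0.39, adjusted p = 0.0138). The replicate numbers were not taken to pair the mice, since the labels do not tie them. Of 56 same-numbered pairs, 31 were correlated over 0.1. Their medians within strains were 0.019 to 0.20, against -0.031 to 0.031 for other pairs, and were the higher in every strain. The block moved no other count of members by more than 1.5 times. The methods' t-test on linear signal called 0 members in any strain after adjustment. The hybrid excess of Snord53 in control mice, 362.5 units of linear signal, was not called there (adjusted p = 0.153). The causes of these changes were not tested.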
